A study of Mus musculus with 12 samples.

Results

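Genes of homologous recombination, the Fanconi anemia pathway and the DNA damage checkpoint were examined in primary mouse embryonic fibroblasts (MEFs), connective tissue cells grown from embryos. The set was given as 53 gene symbols, and the 52 that have a row in the count table of 24054 genes were taken. All 52 passed the filter on low counts, among 14876 genes tested, and their lowest count in any library was 52 (Rad51b). The symbol Claspn has no row. Polyadenylated RNA was sequenced in 12 libraries, 3 of each of 4 genotypes: wild type (WT), Blm -/- (Blm KO), Recql -/- (Recql KO) and Blm -/- Recql -/- (double KO). All cells were kept at 37 C in 5% CO2 and 3% O2 in medium with 10% serum, and no further treatment is labelled. The alleles, the mouse strain, the age of the embryos and the passage are not given in the sources used here. No label states if the 3 libraries of each genotype are from different embryos. A p-value here thus weighs a difference between genotypes against the spread of these libraries, which may not be the spread between embryos. In Blm KO, Recql KO and double KO the libraries differ in Y-linked and Xist levels (given below), so the 3 libraries of each of these are not all repeats of 1 RNA sample. Between libraries alike in these levels the spread may be technical.

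Homologous recombination repairs a broken DNA end by copying an intact sister molecule. The end is first trimmed to single-stranded DNA, BRCA1 and BRCA2 then help to prepare it for strand exchange, and the joined molecules are finally either cut apart or unwound. BLM, a RecQ helicase lost in Bloom syndrome, works at the trimming and the unwinding steps, while RECQL1, a related helicase encoded by Recql, acts at stalled replication forks. The Fanconi anemia proteins deal with crosslinked DNA: a core complex attaches ubiquitin to the FANCD2 and FANCI pair, which calls in nucleases and recombination proteins. The kinases ATM and ATR sense breaks and single-stranded DNA and hold the cell cycle through CHK2, CHK1 and WEE1. Many genes of these groups are transcribed mainly in S and G2 phase, so that their level in bulk RNA is often higher in cultures with more cycling cells.

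Short stretches of promoter are shown because several of these genes are textbook targets of E2F, the transcription factor family of S phase entry. Of the 52 genes, 40 had a window in the RefSeq table of the GRCm38.p6 build. The 250 bases before the start were searched on both strands for TTTCGCGC, TTTGGCGC, TTTCCCGC and TTTGCCGC. At least 1 of these words stood in 6 of the 40 windows (15%), against 1.91% of all 27025 genes with a window. The 2 shares were not matched for the content of G and C, which was 42% to 73.2% in the members' windows. For some genes, such as Timeless, the start in that table lies inside the gene span used here for exon positions. The shorter word TTTGAA, the cell cycle homology region of G2 genes, stood in 7.5% of the members' windows and 16.3% of all, and CCAAT, the NF-Y word, in 45% and 34.5%. The 6 E2F stretches are given 5′ to 3′ on the strand of the gene, with the matching word in capitals.
Bard1 (minus strand, chr1:71103154-71103201): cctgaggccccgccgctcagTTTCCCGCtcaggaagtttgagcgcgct
Brca2 (plus strand, chr5:150522433-150522480): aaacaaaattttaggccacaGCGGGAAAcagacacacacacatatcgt
Fancg (minus strand, chr4:43010326-43010373): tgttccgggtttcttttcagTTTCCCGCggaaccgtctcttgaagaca
Topbp1 (plus strand, chr9:103305178-103305225): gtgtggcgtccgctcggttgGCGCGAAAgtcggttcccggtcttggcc
Chek2 (plus strand, chr5:110839811-110839858): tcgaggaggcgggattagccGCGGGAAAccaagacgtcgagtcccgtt
Mdc1 (plus strand, chr17:35841462-35841497): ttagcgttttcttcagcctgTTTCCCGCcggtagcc
In Brca2, Topbp1 and Chek2 the word reads on the strand opposite to the gene. A match is a description of letters and not a shown binding site.

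For the 2 members with the smallest adjusted p in the comparison of Recql KO with WT, one higher and one lower, the whole 250 bases before the start are shown, with CCAAT on either strand in capitals. Neither holds one of the E2F words.
Atm (minus strand, chr9:53536672-53536921): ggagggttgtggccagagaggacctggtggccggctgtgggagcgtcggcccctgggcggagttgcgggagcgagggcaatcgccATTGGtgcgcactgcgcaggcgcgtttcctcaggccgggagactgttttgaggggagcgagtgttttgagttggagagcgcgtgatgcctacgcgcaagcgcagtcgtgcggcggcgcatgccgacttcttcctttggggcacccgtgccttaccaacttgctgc
Fancf (minus strand, chr7:51862268-51862517): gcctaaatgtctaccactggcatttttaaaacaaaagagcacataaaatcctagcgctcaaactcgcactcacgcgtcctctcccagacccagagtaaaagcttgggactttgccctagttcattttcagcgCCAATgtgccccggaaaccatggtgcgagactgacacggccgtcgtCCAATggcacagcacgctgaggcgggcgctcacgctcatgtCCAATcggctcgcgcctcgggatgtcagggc

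Several features of the libraries bear on what follows. Totals ranged from 47758552 to 59296354 expected counts, and the first principal component (47.3% of the variance) placed the 3 libraries labelled Recql KO apart from the other 9. Blm fell by 2.33 on the log2 scale in Blm KO (edgeR adjusted p = 0.00211) and by 1.91 in double KO (edgeR adjusted p = 0.0105). Recql was not called lower under the labels Recql KO (-0.13, edgeR adjusted p = 0.642) and double KO (-0.07, edgeR adjusted p = 0.928), so both names mean here the libraries that carry those labels. Y-linked transcripts were high (229 to 283 CPM, counts scaled to the library total; Y-high below) in the 3 WT libraries and in 1 library of each other genotype, where the rest had 28.7 CPM or less. Xist, the RNA of the inactive X chromosome, was at 11.68 CPM or less in these 6 libraries and at 309.6 to 473 CPM in the other 6, so the Y-linked level and the genotype are partly confounded. Of the fibroblast markers, Col1a1 was high in every library (4555 to 14958 CPM), while Dcn (9.65 to 289 CPM) and Lum (1.31 to 70.9 CPM) varied widely and were low in some. The 10 genes of that list summed to 31732 to 34078 CPM in WT, 45398 to 49614 in Blm KO, 21149 to 26027 in Recql KO and 40615 to 47742 in double KO. Of the blood, endothelial and epithelial markers, Ptprc, Pecam1, Epcam and Cdh1 stayed at or below 1.09 CPM. Hba-a1, Snap25, Myog and Myod1 stayed at or below 0.254 CPM. Others of those lists had higher maxima: 2.48 (Csf1r) to 8.02 CPM (Lyz2) in blood, 1.36 (Cdh5) to 13.5 CPM (Kdr) in endothelium, and 10.2 (Krt8) to 22.3 CPM (Krt19) in epithelium. The 5 endothelial markers summed to 12.2 to 20.2 CPM in WT, 3.27 to 11.4 CPM in Blm KO, 3.08 to 4.48 CPM in Recql KO and 10.4 to 15.1 CPM in double KO. The 5 epithelial markers summed to 23.3 to 46.2 CPM in WT, 15.1 to 20.9 CPM in Blm KO, 9.49 to 14.6 CPM in Recql KO and 16.0 to 37.1 CPM in double KO, so both sums lay below WT in the single genotypes. The 4 neural markers, mainly Map2 and Nes, summed to 136 to 153 CPM in WT, and the libraries of the other genotypes reached 207 to 471 CPM. These markers did not move together. Of the 3 that were tested, 1 was higher and 2 were lower in Blm KO (log2 fold changes -1.46 to 2.62). In Recql KO and in double KO 2 were higher and 1 was lower. Map2 had its maximum, 395 CPM, in Blm KO replicate 2. Blood (3.74 to 14.4 CPM) and germ cell (1.09 to 4.32 CPM) markers were low in all 12 libraries, and the 3 muscle markers, nearly all Des, ranged from 8.46 CPM in Recql KO to 149.8 CPM in double KO replicate 2. Their part in the results was not tested.

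The members were expressed at moderate to low levels in WT. Per kilobase of exon, the highest were H2afx, the histone variant phosphorylated around breaks (20.3 CPM per kb), Tipin, a fork protection factor (19.8), Nbn (14.8) and Rad50 (14.0), both of the MRN complex that binds broken ends. The lowest were Palb2, which links BRCA1 with BRCA2 (0.448), and Rad51b (0.386). The resection nuclease genes Exo1 and Dna2 stood at 1.92 and 0.805 CPM per kb, well under the MRN genes on this scale. Levels below are TMM-scaled CPM, which compare libraries within a gene and not genes with each other. The median coefficient of variation of a member between libraries was 16.5% in double KO, above the 10.3% of WT, 9.61% of Blm KO and 9.01% of Recql KO.

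**Figure D1:**
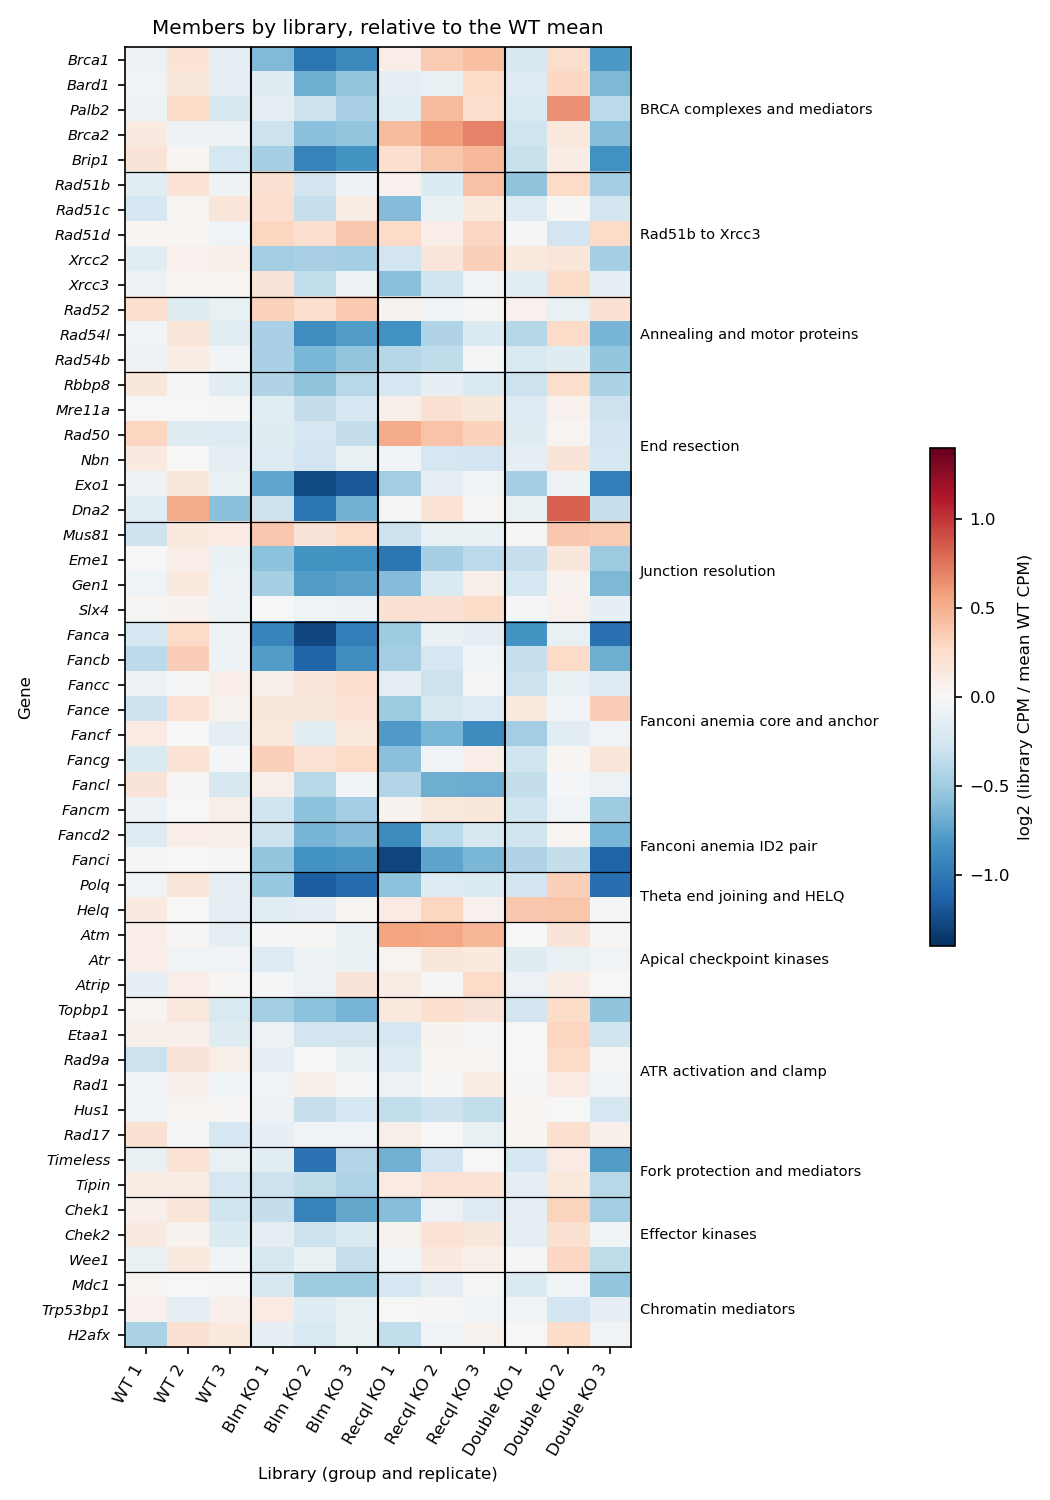
Log2 of each library's CPM over the mean WT CPM for the 52 genes (rows, grouped by role) in the 12 libraries (columns, 3 per genotype); red is higher and blue lower than the WT mean. The Blm KO columns are mostly blue, and double KO replicate 2 is mostly red while replicate 3 is mostly blue.

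Blm KO was set against WT to ask which repair transcripts go with the Blm KO label. Most members had lower mean levels in Blm KO, by modest amounts, and none passed the test. Of 52 members 42 had a negative log2 fold change, with a median of -0.23 against 0.0050 over all genes tested. edgeR called 0 members at an adjusted p under 0.05, against 0.753% of all genes (0.363% higher and 0.39% lower). At an unadjusted p under 0.05 there were 23, 21 lower and 2 higher, against 18.9% of all genes. DESeq2 called 13, all lower. Its share of all genes called is not given here, so the 13 are not read against a background. The 3 Blm KO libraries lay below all 3 WT libraries for 26 members, or 50% of them against 12.1% of all genes, and above them for 3, against 12.6%.

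Exo1, the nuclease that extends trimmed ends (chromosome 1, 175880581 to 175913489), stood at 15.5, 18.1 and 15.1 CPM in WT and at 9.81, 6.78 and 7.1 CPM in Blm KO. The groups did not overlap. Its log2 fold change was -1.04 ± 0.22 (SE, edgeR adjusted p = 0.0637), the smallest adjusted p of the set. Fanca, a subunit of the Fanconi core complex (chromosome 8, 123268300 to 123318576), was at 12.3, 17.6 and 13.9 CPM in WT and at 7.64, 6.03 and 7.48 CPM in Blm KO, again without overlap (log2 fold change -1.05 ± 0.24 SE, edgeR adjusted p = 0.0734). Both had a DESeq2 adjusted p under the threshold (0.00092 for Exo1 and 0.00167 for Fanca), so that the call depends on the tool. In edgeR 8 members were called when double KO replicate 2 was left out of the shared estimate of spread and 3 when double KO replicate 3 was, with Exo1 and Fanca at -1.04 and -1.05 in both fits. The shares of all genes called in those fits are not given here.

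The BRCA complex genes were all lower in Blm KO by their fold changes. Brca1, the ubiquitin ligase subunit that favours recombination, was at 24.6, 29.5 and 23.7 CPM in WT and 16.9, 12.7 and 13.9 CPM in Blm KO (-0.84 ± 0.23 on the log2 scale, edgeR adjusted p = 0.112). Brip1, the BRCA1-bound helicase, had -0.73 ± 0.22 (edgeR adjusted p = 0.13), Brca2 -0.47 (0.176), Bard1, the partner of BRCA1, -0.45 (0.301) and Palb2 -0.28 (0.592). The Blm KO libraries lay below all WT libraries for each of these except Palb2. Summed over the 5 genes, levels were 65.7 to 77.3 CPM in WT and 41.4 to 54.3 CPM in Blm KO, with no overlap.

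Other recombination steps were uneven. The group of Rad51b, Rad51c, Rad51d, Xrcc2 and Xrcc3, whose proteins assist early steps of strand exchange, ranged from -0.47 (Xrcc2) to 0.30 (Rad51d). Rad51d stood at 20.5, 20.4 and 19.2 CPM in WT and 24.8, 23.3 and 26 CPM in Blm KO, each Blm KO library above each WT library (log2 fold change 0.30 ± 0.12 SE, edgeR adjusted p = 0.225). Rad52, an annealing protein, was at 9.48, 7.19 and 7.53 CPM in WT and 10.1, 9.44 and 10.4 CPM in Blm KO, where 1 WT library reached the Blm KO range (0.31 ± 0.13, edgeR adjusted p = 0.23). Rad51d and Rad52 had the highest fold changes of the set, in the opposite direction to the motor proteins Rad54l (-0.69) and Rad54b (-0.55). Among the genes that cut joined molecules, Eme1 (-0.75), a nuclease subunit, and Gen1 (-0.65), a resolvase, were lower without overlap, Slx4, the nuclease scaffold, was at -0.04, and Mus81, the partner of EME1, was at 0.28. Polq, the polymerase of theta end joining, was at -0.89 (edgeR adjusted p = 0.158) and the helicase gene Helq at -0.08.

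Within the Fanconi core, Fanca (-1.05), Fancb (-0.92) and the DNA translocase gene Fancm (-0.44) were lower without overlap, while Fancc, Fance, Fancf and Fancg had positive fold changes of 0.06 to 0.27. Fancg libraries did not overlap, with Blm KO higher. Both genes of the ID2 pair were lower without overlap (Fanci, -0.73, and Fancd2, -0.51). Among checkpoint genes, Chek1 (-0.64), which encodes the effector kinase CHK1, and Topbp1 (-0.57), an activator of ATR, were lower without overlap, while the apical kinase gene Atm (-0.04) and the 9-1-1 clamp gene Rad1 (0.00) lay near 0. Atr was at -0.11, with its Blm KO libraries all below WT by a small margin. The 6 members with an E2F word shown above ranged from -0.57 (Topbp1) to 0.27 (Fancg), with 5 of 6 negative, where 42 of all 52 members were negative. The 12 members without a window, Exo1 among them, could not be searched. For the set, the 95% interval of a fold change had a median half-width of 0.34 on the log2 scale.

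**Figure D2:**
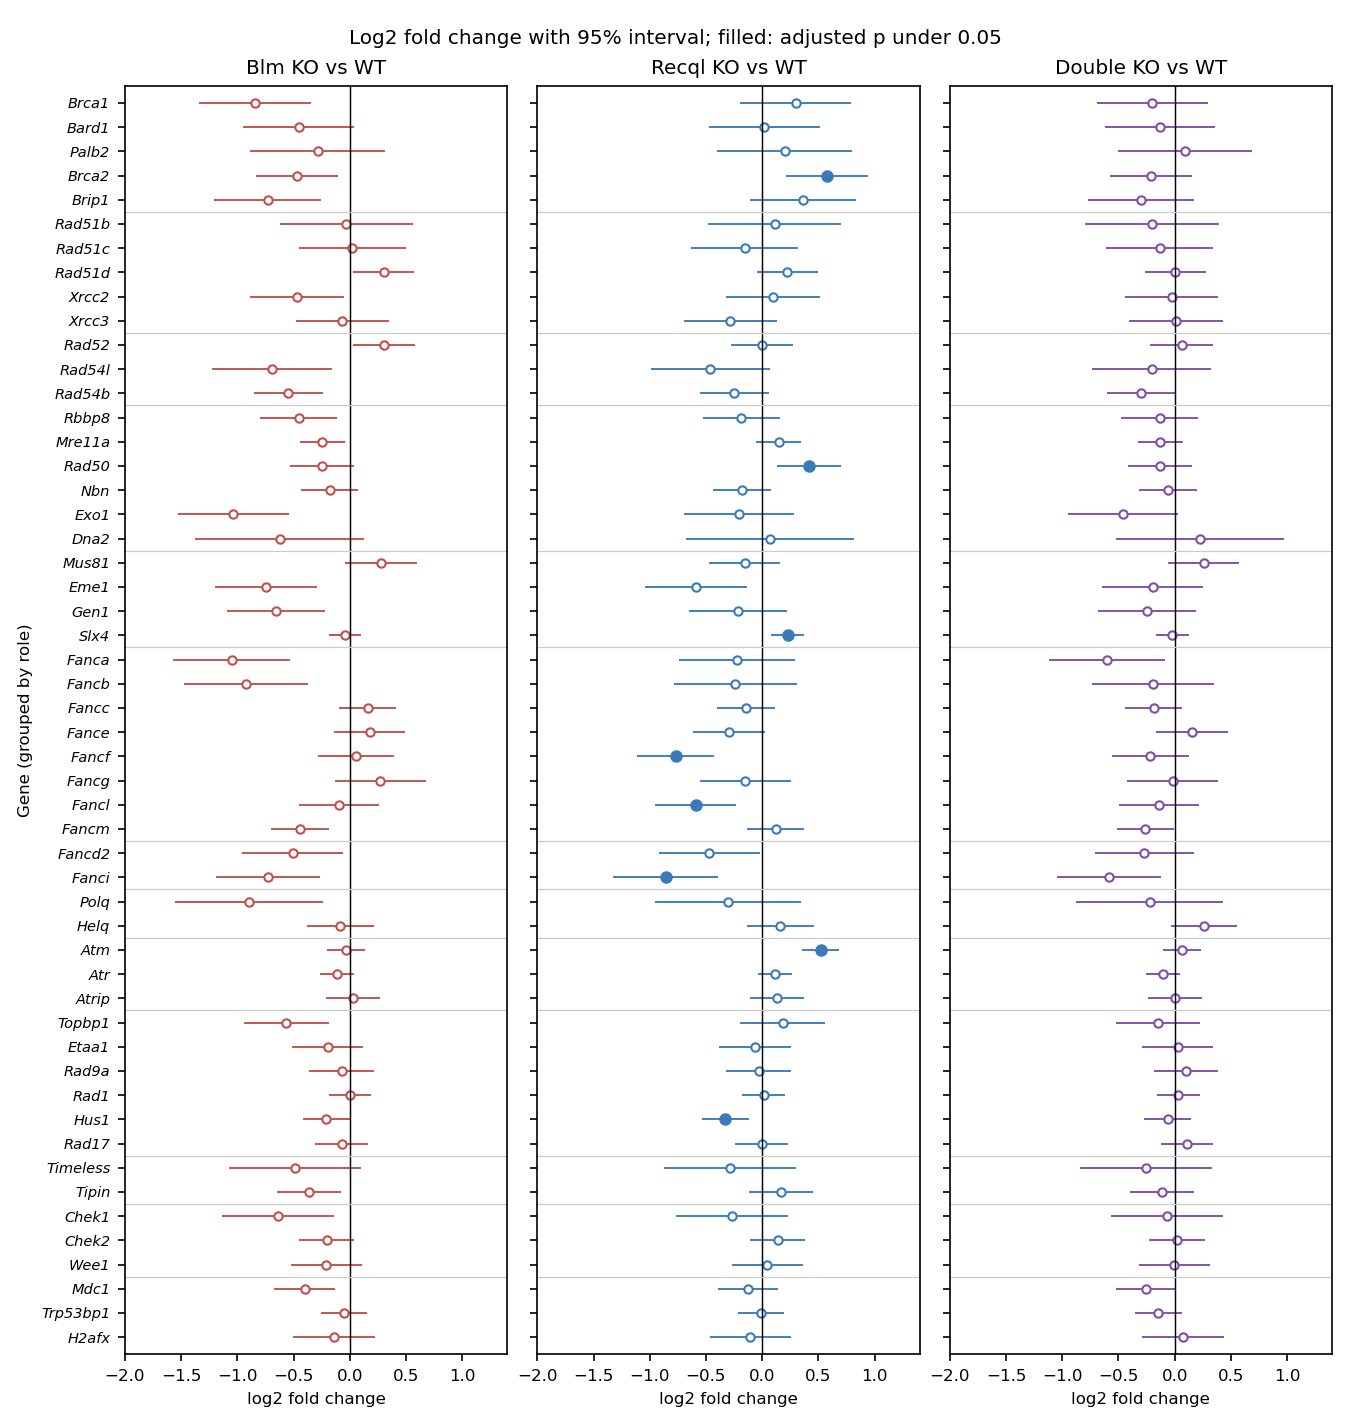
Log2 fold change against WT with its 95% interval (horizontal axis) for the 52 genes, by role, in Blm KO, Recql KO and double KO; filled points have an edgeR adjusted p under 0.05. In Blm KO 42 points lie left of 0 and none is filled, in Recql KO 8 are filled, and in double KO none is.

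Proliferation genes were also at lower levels in Blm KO. All 12 of a list of 12 (such as Mki67, Top2a and the Mcm genes) had negative fold changes in Blm KO, with a median of -0.66, and their libraries did not overlap with WT in any of the 12. edgeR called 0 of the 12 over all genes, and all 12 had an unadjusted p under 0.05. Their sum was 1353 to 1662 CPM in WT, 857 to 1126 CPM in Blm KO, 991 to 1235 CPM in Recql KO and 956 to 1807 CPM in double KO. The part of proliferation in the members' levels was not tested, and in bulk RNA fewer cycling cells and less RNA per cell cannot be told apart. The members' own sum was 1115 to 1226 CPM in WT and 928 to 1033 CPM in Blm KO. Blm KO replicates 2 and 3, the ones low in Y-linked transcripts, had the lowest values of all 12 libraries in both sums. When the fit kept just the Y-high libraries (1 of them Blm KO), the median of the members was -0.15 with 39 negative.

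The libraries labelled Recql KO were set against WT in the same way. Members split in both directions: Atm, Brca2, Rad50 and Slx4 rose, while Fancf, Fancl, Fanci and Hus1 fell. edgeR called 8 members, 4 higher and 4 lower, or 15.4% of the set against 29.9% of all genes (14.2% higher and 15.6% lower). Of the 52, 22 fold changes were positive and 30 negative, with a median of -0.05 against -0.01 over all genes. Libraries did not overlap for 8 members higher and 9 lower, which is 15.4% and 17.3% of the set against 23.9% and 25.4% of all genes.

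Atm, the kinase gene for double-strand breaks (chromosome 9, 53439149 to 53536740), had the smallest adjusted p. It was at 61.8, 58.8 and 53.2 CPM in WT, 57.1, 58.5 and 53.9 CPM in Blm KO, 85.1, 84.1 and 80.1 CPM in Recql KO and 58.1, 65.5 and 58.5 CPM in double KO. Every library labelled Recql KO lay above the other 9. Atm rose by 0.52 ± 0.08 on the log2 scale (edgeR adjusted p = 0.00111), a call kept whichever of the 12 libraries was left out. The other genes of the apical step were closer to WT, with Atr at 0.11 and Atrip, the ATR-binding protein gene, at 0.13.

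Brca2, a mediator of recombination (chromosome 5, 150522630 to 150570329), was at 19.5, 17 and 17 CPM in WT and at 24.2, 26.8 and 28.9 CPM in Recql KO. Levels were 14.5, 11.9 and 12.3 CPM in Blm KO and 14.7, 19.7 and 11.8 CPM in double KO, so that Recql KO was the only genotype whose libraries all exceeded WT. Brca2 rose by 0.58 ± 0.17 (edgeR adjusted p = 0.0237). All 5 BRCA complex genes had positive fold changes, from 0.02 (Bard1) to 0.58, and Brip1 did not overlap with WT (0.36, edgeR adjusted p = 0.221). Their sum was 82.8 to 101 CPM in Recql KO, above the WT range given before.

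Rad50, the ATPase arm of MRN (chromosome 11, 53649519 to 53707319), was at 92.8, 67 and 66.4 CPM in WT and 108, 99.8 and 94.3 CPM in Recql KO. WT replicate 1 stood close to the Recql KO range. The rise was 0.42 ± 0.13 (edgeR adjusted p = 0.0337), while the other MRN genes did not pass (Mre11a 0.15, Nbn -0.18). Slx4 (chromosome 16, 3979105 to 4003770) was at 33.5, 34.3 and 31.5 CPM in WT and 38.5, 38.4 and 39.4 CPM in Recql KO, a small but regular rise of 0.23 ± 0.07 (edgeR adjusted p = 0.0255). Its nuclease partner gene Eme1 had -0.59 (edgeR adjusted p = 0.0514, DESeq2 adjusted p = 0.0299).

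Fancf, a core complex subunit encoded on chromosome 7 (51860577 to 51862267), was at 5.86, 5.38 and 4.97 CPM in WT, 6, 4.87 and 5.98 CPM in Blm KO, 3.11, 3.46 and 2.93 CPM in Recql KO and 3.85, 4.88 and 5.22 CPM in double KO. The 3 Recql KO libraries were the lowest of the 12. Fancf fell by 0.77 ± 0.16 on the log2 scale (edgeR adjusted p = 0.00524). Fancl, the ubiquitin ligase of the core complex (chromosome 11, 26386135 to 26471876), was at 8.93, 7.99 and 6.73 CPM in WT and 5.93, 4.91 and 4.85 CPM in Recql KO. Those groups did not overlap, and Fancl fell by 0.59 ± 0.16 (edgeR adjusted p = 0.0207). Of the 8 core and anchor genes 7 had negative fold changes, with a median of -0.23, and Fancm was at 0.12.

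Fanci, one of the pair that the core complex modifies (chromosome 7, 79391929 to 79450264), was at 14, 14.1 and 14.4 CPM in WT and 5.84, 8.52 and 9.11 CPM in Recql KO. It was also below WT in every Blm KO library (9.75, 7.89 and 8.04 CPM) and every double KO library (10.6, 11.2 and 6.52 CPM). Blm lies near Fanci on the same chromosome (80454733 to 80535119). The part of this nearness to the altered Blm locus in the Fanci levels of Blm KO and double KO was not tested. In Recql KO, Fanci fell by 0.86 ± 0.21 (edgeR adjusted p = 0.0126), the lowest fold change of the set. Fancd2, the other of the pair, had -0.47 (edgeR adjusted p = 0.103). Hus1, a subunit of the 9-1-1 clamp that recruits TOPBP1 (chromosome 11, 8993137 to 9011191), was at 16, 17.1 and 16.8 CPM in WT and 13, 13.6 and 13.1 CPM in Recql KO, without overlap. Hus1 fell by 0.33 ± 0.10 (edgeR adjusted p = 0.0264), while the other clamp genes Rad9a (-0.03) and Rad1 (0.01) lay near 0. Effector kinases did not pass, with Chek1 at -0.27, Chek2 at 0.14 and Wee1, the kinase that restrains CDK1, at 0.05.

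**Figure D3:**
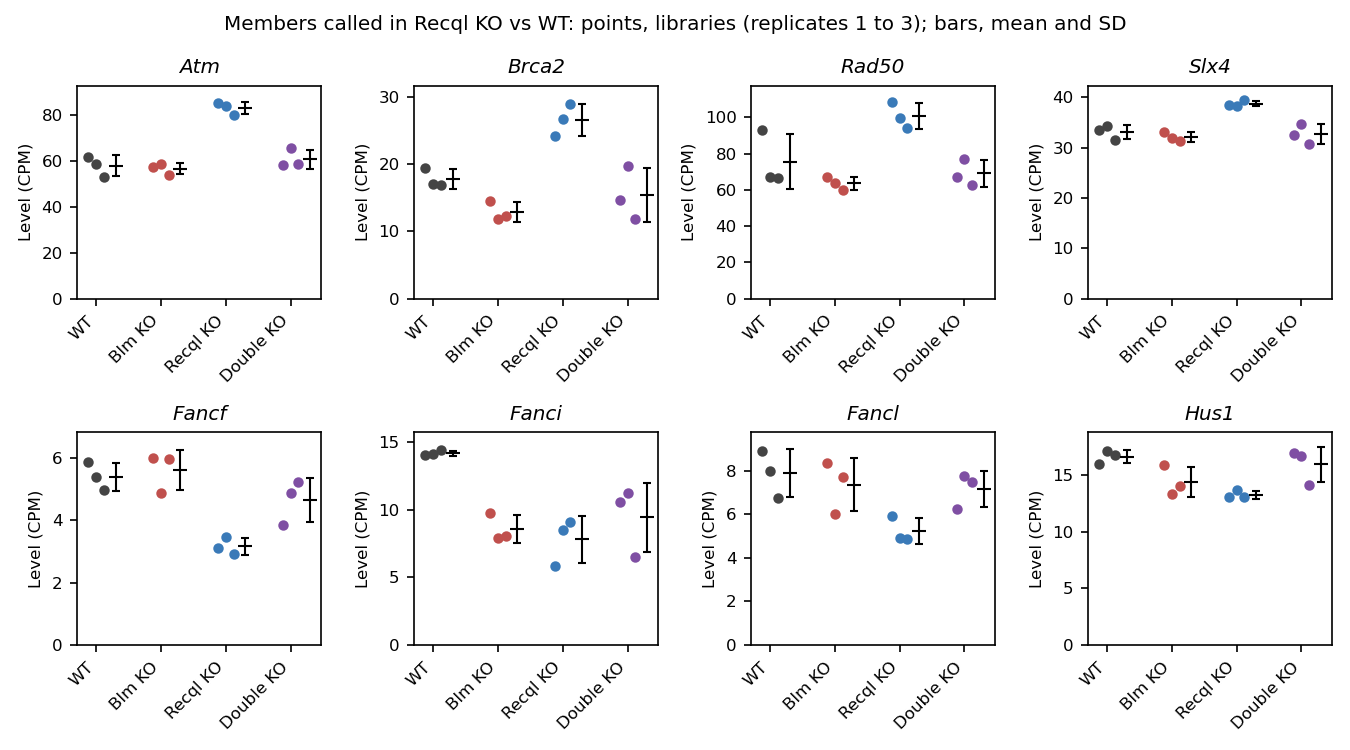
CPM (vertical axes, from 0) in each library of the 8 members called in Recql KO vs WT; points are replicates 1 to 3 from left to right, and the black bar beside them is the mean with its SD. Atm, Brca2, Rad50 and Slx4 are highest in Recql KO, and Fancf is lowest there, while Fanci is also low in Blm KO and double KO.

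Atm, Fancf and Fanci kept their calls in each of the 12 fits that leave out 1 library, and the other 5 did not. Brca2 was lost without WT replicate 2 or 3 or Recql KO replicate 2 or 3 (log2 fold change 0.52 to 0.65 over the 12 fits, edgeR adjusted p up to 0.0726). Rad50 was lost without WT replicate 2 or 3 or Recql KO replicate 1 or 2 (0.34 to 0.60, up to 0.109), and Slx4 without WT replicate 3 or any Recql KO library (0.20 to 0.26, up to 0.0881). Fancl was lost without WT replicate 1 or 2 or Recql KO replicate 2 or 3 (-0.69 to -0.49, up to 0.0798), and Hus1 without WT replicate 2 or 3 or any Recql KO library (-0.35 to -0.30, up to 0.084). When the fit kept just the Y-high libraries (1 of them Recql KO), the spread came from the WT libraries alone. That fit called 1 member (Fanci), and gave Atm 0.55 and Fancf -0.80, about as in the fit to all libraries, without a call. With a covariate for the Y-linked level 6 were called, and Fancl (-0.45) and Hus1 (-0.27) were lost. The shares of all genes called in these fits are not given here, so the counts are not read against a background.

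Exons of 3 of the members that fell overlap a neighbour on the opposite strand, and the strand setting of the counting is not given in the sources used here, so reads of the pairs may be mixed. The overlap is 14.96% of Fancf exon bases with Gas2, 16.0% of Fanci with Polg and 13.7% of Fancl with Vrk2. In Recql KO, Gas2 was lower (-1.67, edgeR adjusted p = 0.00326), Polg was at -0.23 (0.0603), and Vrk2 was higher (0.43, edgeR adjusted p = 0.0136). Gas2 was at 18.6 to 34.7 CPM in WT and 7.68 to 8.84 CPM in Recql KO, and it was higher again in double KO against Recql KO (1.68, edgeR adjusted p = 0.00369). Its part in the Fancf level was not tested. Atm, Rad50, Slx4 and Hus1 share no exon base with another gene.

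Double KO was compared with WT next. Members lay close to WT on average and the 3 libraries differed widely among themselves. edgeR called 0 members, against 0.121% of all genes (0.0739% higher and 0.0471% lower), DESeq2 called 0, and 3 had an unadjusted p under 0.05, all lower, against 10.8% of all genes. The median fold change was -0.13, with 36 negative. Groups did not overlap for 4 members, all lower (Rad54b, Fancc, Fanci and Mdc1, the adaptor of phosphorylated H2AX), against 6.82% of all genes lower and 7.31% higher.

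Fanca was at 8.15, 13.6 and 7.09 CPM in double KO, where replicate 2 fell within the WT range (log2 fold change -0.60, edgeR adjusted p = 0.394). Fanci had -0.59 (edgeR adjusted p = 0.358), the smallest adjusted p of this comparison. At the other end, Helq was at 7.63, 7.02 and 6.37 CPM in WT and 9.07, 9.17 and 6.94 CPM in double KO (0.26), and Mus81 at 6.38, 8.59 and 8.44 CPM in WT and 7.87, 10.1 and 9.99 CPM in double KO (0.26). Both overlapped with WT. Double KO replicate 2 held the highest level of all 12 libraries for 19 of the 52 members, and its members' sum was 1275 CPM, with 1066 CPM in replicate 1 and 957 CPM in replicate 3. Its proliferation sum was likewise the highest (1807 CPM, with 1212 and 956 CPM in the other two), and it was the 1 double KO library high in Y-linked transcripts. Without that library 22 members lay below WT without overlap and 44 were negative. With fewer libraries, groups lie apart more readily for any gene, and the share of all genes in that setting was not counted.

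**Figure D4:**
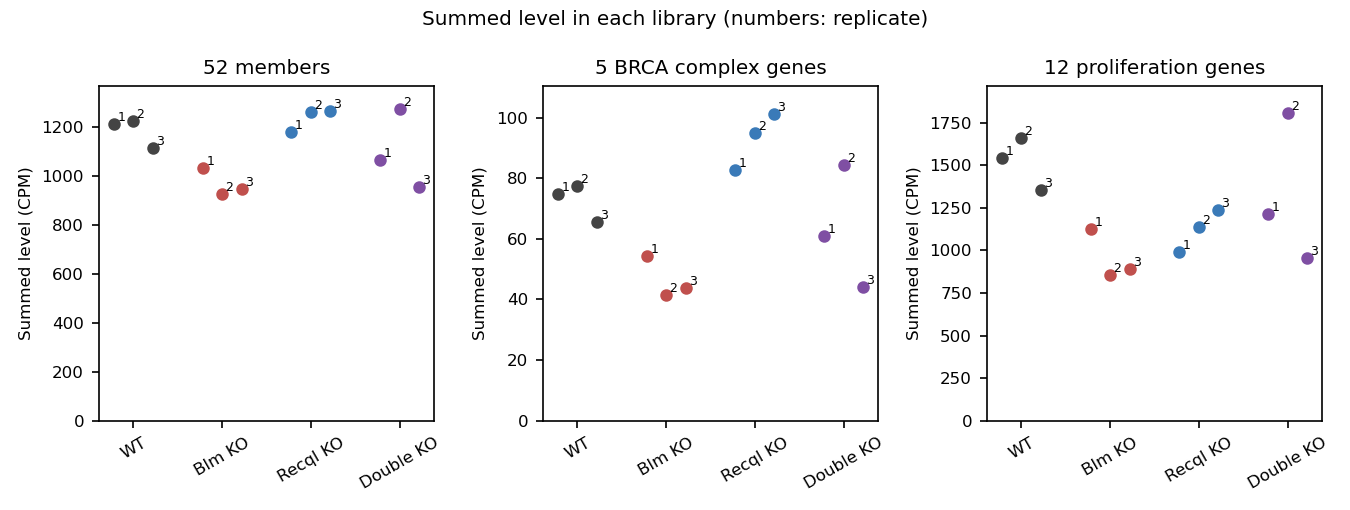
Summed CPM (vertical axes, from 0) of the 52 members, of the 5 BRCA complex genes and of 12 proliferation genes in each library, with the replicate number beside each point. The Blm KO libraries lie below WT in all 3 panels, and double KO libraries spread from the Blm KO range to above WT.

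Double KO against Blm KO asks what goes with the Recql KO label where Blm is also lost. Members were mostly higher in double KO, with none passing: edgeR called 0 (against 1.96% of all genes, 0.934% higher and 1.02% lower) and DESeq2 0, and 12 had an unadjusted p under 0.05, 10 higher and 2 lower, against 23.3% of all genes. The median was 0.19 with 40 positive, against 0.0048 over all genes. All 12 proliferation genes were also higher (median 0.46), with 0 called by edgeR and 8 at an unadjusted p under 0.05. Groups did not overlap for 5 members higher (Fancb, Eme1, Rad17, the clamp loader gene, Chek2 and H2afx), against 12% of all genes, and for 3 lower (Rad52, Fancc and Fancg), against 14.1%. The highest fold changes were those of Dna2 (0.85), Fancb (0.73) and Polq (0.67), and the lowest those of Fancc (-0.35) and Fancg and Rad51d (-0.29 each). Over the 12 fits that leave out 1 library, the median ranged from 0.06 to 0.28 and the members below 0 from 9 to 17. Without double KO replicate 3, 29 members lay above Blm KO without overlap and Brca1 was called (0.87, edgeR adjusted p = 0.0355). The share of all genes without overlap in that setting was not counted, and the share called is not given here.

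Double KO against Recql KO gave 10 called members, 2 higher and 8 lower, or 19.2% of the set against 24.7% of all genes (13.2% higher and 11.6% lower). Groups did not overlap for 5 members higher and 8 lower, against 22.5% and 21.1% of all genes. These libraries include the Recql KO ones already compared with WT, so both comparisons rest in part on the same data. Atm (-0.45 ± 0.08, edgeR adjusted p = 0.00246), Brca2 (-0.79 ± 0.17, 0.00719) and Rad50 (-0.55 ± 0.13, 0.0127) were lower in double KO and kept that call whichever library was left out. Slx4 (-0.25, 0.0205), Fancm (-0.38, 0.0354), Atr (-0.22, 0.0391), Brip1 (-0.67, 0.0446) and Mre11a (-0.28, 0.0492) were also lower. Fancf (0.55, 0.0257) and Fance, another core subunit (0.45, 0.0444), were higher.

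Mre11a, the MRN nuclease, was at 35.4, 38.9 and 37.6 CPM in Recql KO and 29.7, 35.2 and 27.6 CPM in double KO, with a narrow gap between the groups. Fancm was at 29.8, 31.8 and 32.2 CPM in Recql KO and 23.8, 27.8 and 20.4 CPM in double KO. Atr was at 39.1, 42.4 and 41.8 CPM in Recql KO and 33.8, 35.5 and 36.7 CPM in double KO, again apart. Brip1 was at 20.6, 22.9 and 23.8 CPM in Recql KO and 14.1, 18.6 and 9.66 CPM in double KO. Fance was at 7.23, 8.71 and 9.01 CPM in Recql KO and 11.2, 9.94 and 12.9 CPM in double KO, the reverse order without overlap. The other 7 calls were each lost in some of the fits that leave out 1 library, while their fold changes kept their sign. Slx4 was lost without any 1 Recql KO library or double KO replicate 3 (-0.30 to -0.21 over the 12 fits, edgeR adjusted p up to 0.0706), and Fancf without Recql KO replicate 1 or 3 or double KO replicate 2 or 3 (0.46 to 0.67, up to 0.0923). Fancm was lost without Blm KO replicate 3, any Recql KO library or double KO replicate 1 or 3 (-0.50 to -0.28, up to 0.112), and Atr without Blm KO replicate 3, Recql KO replicate 2 or 3 or double KO replicate 1 or 2 (-0.26 to -0.19, up to 0.116). Brip1 kept its call in 4 of the 12 fits (without WT replicate 3, Blm KO replicate 1 or 2 or double KO replicate 2; -0.92 to -0.46, edgeR adjusted p up to 0.115). Fance kept its call in 3 (without WT replicate 1 or 2 or double KO replicate 2; 0.34 to 0.53, up to 0.159) and Mre11a in 2 (without Blm KO replicate 1 or double KO replicate 2; -0.38 to -0.21, up to 0.154). A fit on these 2 genotypes alone called 3 members (edgeR), and its share of all genes called is not given here.

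The interaction asks whether the change with the Recql KO label differed between a background with Blm and one without it. It was called for 3 members, Eme1, Atm and Hus1, or 5.77% of the set against 10.4% of all genes (5.86% positive and 4.58% negative). Eme1, the MUS81 partner (chromosome 11, 94644996 to 94653964), was at 7.17, 7.64 and 6.75 CPM in WT, 4.83, 4.02 and 4 CPM in Blm KO, 3.54, 5.2 and 5.59 CPM in Recql KO and 5.75, 8.02 and 5.06 CPM in double KO. Both single genotypes were thus below WT while double KO overlapped with WT. The change from WT to Recql KO was -0.59, that from Blm KO to double KO 0.55, and their difference 1.14 ± 0.29 (edgeR adjusted p = 0.0346). For Atm the 2 changes were 0.52 and 0.10 (difference -0.42 ± 0.11, edgeR adjusted p = 0.0352), and for Hus1 -0.33 and 0.15 (0.47 ± 0.14, edgeR adjusted p = 0.0492).

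These calls were each lost in most of the 12 fits that leave out 1 library, while the differences kept their sign. Atm was lost in 8 of the 12 fits without 1 library (kept without WT replicate 1, Blm KO replicate 1, Recql KO replicate 3 or double KO replicate 2; difference -0.48 to -0.37, edgeR adjusted p up to 0.0756). Eme1 was lost in 8 (kept without Blm KO replicate 1, Recql KO replicate 3 or double KO replicate 1 or 3; 0.92 to 1.27, up to 0.0925) and Hus1 in 10 (kept without Blm KO replicate 1 or double KO replicate 3; 0.41 to 0.55, up to 0.124). DESeq2 called 5, which were these 3 with Fanci (1.00) and Rad51d (-0.52), and its share of all genes called is not given here. The median difference over the set was 0.25, with 38 positive, against 0.01 over all genes. For the 12 proliferation genes all differences were positive, with a median of 0.70, and edgeR called 2 (16.7%, against 10.4% of all genes). The part of proliferation in the members' differences was not tested. At an unadjusted p under 0.05 there were 17 members, 14 of them positive, against 28.3% of all genes.

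**Figure D5:**
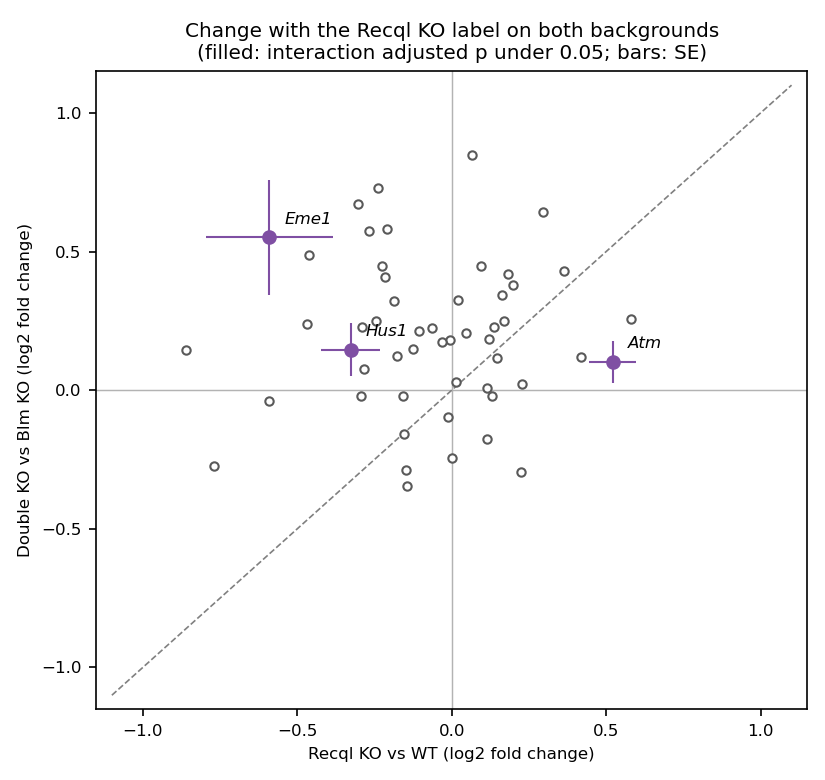
Log2 fold change from WT to Recql KO (horizontal axis) against that from Blm KO to double KO (vertical axis) for the 52 members; the dashed line marks equal changes, and filled points with SE bars have an interaction adjusted p under 0.05. Most points lie above the line, Eme1 and Hus1 above it at the left and Atm below it at the right.

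A list of 48 other genes of the same pathways was read beside the members, and it was likewise chosen with results of these data known. Blm itself was the only one called in Blm KO and in double KO against WT. Clspn, the CHK1 adaptor claspin, had -0.82 in Blm KO (edgeR adjusted p = 0.163). In Recql KO 1 of the 48 rose (Spidr, a scaffold that binds BLM, 0.32) and 8 fell, together 18.75% of the list against the 29.9% of all genes called. Those with the smallest adjusted p were Cdc25c (-1.26, edgeR adjusted p = 0.00179) and Cdc25b (-0.87, 0.00396), phosphatases that drive mitotic entry and are restrained by the checkpoint kinases, Mad2l2 (-0.59, 0.00583), a shieldin and translesion subunit, and Shfm1 (-0.37, 0.00936), the BRCA2-bound DSS1. In double KO against Recql KO 5 of the 48 were higher and 3 lower (24.7% of all genes were called), with Blm (-1.50), Cdc25c (0.93), Spidr (-0.45) and Cdc25b (0.65) first. In double KO against Blm KO 0 of 48 were called by edgeR, with 8 at an unadjusted p under 0.05, and the interaction was called for 3 (Cdc25c, Parpbp and Dbf4, all positive), or 6.25% against 10.4% of all genes. Of the 12 proliferation genes in Recql KO, 2 were called, the cyclin genes Ccna2 (-1.18, edgeR adjusted p = 0.00448) and Ccnb1 (-1.07, 0.00486), with 8 fold changes negative and 4 positive. Of 8 genes of the E2F and RB families 2 were called, E2f1 (0.48, edgeR adjusted p = 0.00331) and E2f3 (0.25, 0.0152), with 4 positive and 4 negative.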

How the data were processed

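The values the authors deposited are expected counts, estimates that share out ambiguous reads and need not be whole. Bowtie2 2.1.0, RSEM 1.2.15 and the mm10 build are named per the submitters' processing notes. Per the labels' protocols, polyadenylated RNA went into a stranded mRNA kit. Which annotation, strand setting and read filters served is not given in the sources used here.

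The deposited values were rounded to whole counts and tested in R 4.3.3 with edgeR 4.0.16. filterByExpr by group left 14876 genes with 99.99% of the counts. TMM scaling gave factors of 0.96 to 1.03. The model had a mean for each of the 4 genotypes over all 12 libraries (8 residual degrees of freedom, common biological coefficient of variation 0.209). Tests were edgeR's quasi-likelihood F tests (robust), with p-values adjusted by Benjamini-Hochberg over all genes tested and called at an adjusted p under 0.05. The interaction is double KO less Blm KO, minus Recql KO less WT, on the log2 scale. Levels given are TMM-scaled CPM, each fold change carries its standard error (SE) or 95% interval, and groups are said not to overlap where every library of one lies above every library of the other. The steps were tested on data simulated from the mean levels and spread of all 12 libraries (14709 genes), with changes placed in the Recql KO libraries. Changed genes were drawn only from those above a set mean count. The steps recovered 26.7% of 60 genes changed 1.5-fold and 75.7% of 70 changed 2-fold. With 142 genes called there, against 4444 in the real comparison of Recql KO with WT, the settings differ. Libraries of one genotype differed beyond counting noise (chi-square per degree of freedom 25.5 to 167).

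The members and lists were chosen with earlier results of these data known. Every member may be named. Values in each library are given for members called in a comparison and for the 2 highest and 2 lowest fold changes against WT, with a few others chosen after their values were seen (Brca1, Gas2). Of the wider pathway list, 1 gene is not reported here. Exon positions and lengths came from GENCODE M21 and promoter windows from RefSeq, both of the same build as the table. Alternatives were RLE scaling, no filter, DESeq2 1.42.0, a stricter filter (3 libraries with CPM over 1), only the groups compared, a replicate block, a covariate for the Y-linked level, each library left out in turn and, added after seeing the data, only libraries high in Y-linked transcripts.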

Additional observations from a re-analysis of the deposited data

Results flagged for a closer look

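For 3 members the change with the Recql KO label differed between the 2 backgrounds by the interaction test. Double KO less Blm KO exceeded Recql KO less WT by 1.14 on the log2 scale for Eme1 and by 0.47 for Hus1, and it was lower by 0.42 for Atm (log2 difference -0.42). The edgeR adjusted p values were 0.0346, 0.0492 and 0.0352, none of which held in all 12 fits that leave out 1 library. The values rest on libraries of which those labelled Recql KO and double KO showed no lower Recql transcript.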

How the results depend on the processing

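The sign of the set median was kept by every alternative run in Blm KO vs WT, double KO vs Blm KO and the interaction, but not elsewhere: the median in double KO vs WT turned from -0.13 to 0.12 with only libraries high in Y-linked transcripts, and the medians near 0 in Recql KO vs WT and double KO vs Recql KO crossed 0 when single libraries were left out. In Blm KO vs WT the members called were 13 with DESeq2 and 2 with only the groups compared, where edgeR on all libraries called 0. In Recql KO vs WT 1 member was called with only libraries high in Y-linked transcripts. In double KO vs Recql KO 3 were called with only the groups compared and 0 with only libraries high in Y-linked transcripts. For the interaction the number was 5 with DESeq2, 1 with a covariate for the Y-linked level and 0 with only libraries high in Y-linked transcripts. That last setting has 1 library in each genotype but WT, so its spread comes from WT alone, and with it 15 members were negative in double KO vs WT against 36 in the fit to all libraries, 12 in double KO vs Recql KO (median 0.36) and 9 in the interaction (median 0.40). RLE scaling gave 8 members above Blm KO without overlap in double KO, against 5. The cause of these shifts was not tested. The shares of all genes called under these settings are not given here, so the counts of members are not read against a background. Leaving out 1 library at a time, the members called ranged from 0 to 8 in Blm KO vs WT, 3 to 9 in Recql KO vs WT, 0 to 0 in double KO vs WT, 0 to 1 in double KO vs Blm KO, 3 to 12 in double KO vs Recql KO and 0 to 6 in the interaction. In the same order, the members below 0 ranged from 39 to 44, 25 to 32, 27 to 44, 9 to 17, 21 to 37 and 12 to 22, and the medians from -0.29 to -0.18, -0.10 to 0.02, -0.22 to -0.0035, 0.06 to 0.28, -0.18 to 0.061 and 0.11 to 0.36. Members without overlap, higher and lower, ranged from 2 to 5 and 26 to 35 in Blm KO vs WT, 8 to 15 and 8 to 15 in Recql KO vs WT, 0 to 2 and 3 to 22 in double KO vs WT, 5 to 29 and 3 to 6 in double KO vs Blm KO, and 5 to 8 and 8 to 19 in double KO vs Recql KO. The shares of all genes without overlap in these smaller sets of libraries were not counted. With the replicate number as a block, 0, 8, 0, 0, 9 and 2 members were called in the 6 comparisons, and Fancm and Mre11a in double KO vs Recql KO (edgeR adjusted p = 0.05002 and 0.0549) and Hus1 in the interaction (0.0576) were lost. Deviations of same-numbered libraries had correlations of -0.19 to 0.21 over 18 pairs, and 3 of 12 libraries correlated best with their own number, so the numbers were not taken to pair samples. In Recql KO vs WT the 95% intervals of the members reach 0.15 to 0.75 to each side on the log2 scale, with a median of 0.34. What greater depth would change was not tested.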

Other observations

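Libraries differed in how many members were high or low. Of the 52, 46 lay above their own mean over all libraries in double KO replicate 2, 43 in WT replicate 2 and 42 in Recql KO replicate 3, and 9 did in Blm KO replicate 2, 10 in double KO replicate 3 and 12 in Blm KO replicate 3. Blm KO replicate 2 held the lowest level of the 12 libraries for 18 members. By genotype mean, Blm KO was the lowest for 36 members, and WT and Recql KO were each the highest for 18.

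Stability within a genotype differed between members. In WT, Mre11a varied least (coefficient of variation 0.928%) and Dna2 most (39.5%), and in double KO Atr varied least (4.12%) and Polq most (45.7%). Polq stood at 13.1, 20 and 7.6 CPM in the 3 double KO libraries, a range wider than that between WT and Blm KO means (15.8 and 8.52 CPM).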
